A study of Mus musculus with 12 samples.

Results

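The semaphorins, ephrins, Slits and netrins are guidance cues that were first described in growing axons, and the plexins, Eph receptors, Robos and Unc5 proteins are their receptors. Here they were followed in cultured fibroblasts of the aortic adventitia, the outer layer of the vessel wall. Members were chosen by symbol alone: every row of the count table named as a class 3 to 7 semaphorin, a plexin, an Eph receptor, an ephrin, a Slit, a Robo, a netrin (*Ntn1*, *Ntn3*, *Ntn4*, *Ntn5*) or an Unc5 receptor was taken. This gave 65 genes of the 54352 symbols in the table, 34 ligands and 31 receptors. Over the 4 groups, 51 of the 65 passed a low-count filter that 14637 of all genes passed.

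The study asked whether fibroblasts from separate sites of the aorta respond differently to transforming growth factor β (TGFβ), a cytokine that signals through SMAD transcription factors and drives fibroblasts to make matrix and contractile proteins. The 12 bulk RNA-seq libraries came from WT mice of strain C57Bl/6, aged 14 weeks by the labels, whose adventitial fibroblasts were passaged once by the culture methods. The sources differ on the age and on the number of passages. The 4 groups of 3 libraries were descending fibroblasts with solute control (0 ng/mL TGFβ), descending fibroblasts with 10 ng/mL TGFβ, ascending fibroblasts with solute control, and ascending fibroblasts with 10 ng/mL TGFβ, each for 48 h. Ascending cells included the aortic root, and nothing in the labels says whether replicates of 1 group came from separate animals, so the p-values below measure the spread between these libraries only, which may be technical.

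Semaphorins bind plexins, and the secreted class 3 semaphorins mostly do so together with a neuropilin. Ephrin-A ligands sit on the membrane by a lipid anchor and ephrin-B ligands span it, so that Eph receptor tyrosine kinases read them by cell contact, and the ephrin-bearing cell can be signalled to in turn. Slits bind Robos and are best known for repulsion, while netrins attract through Dcc or Neo1 and repel through Unc5 receptors. In the vessel wall the same families are known for endothelial sprouting, for setting arterial and venous identity, and for the shaping of the cardiac outflow tract.

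Total counts were 16250126 to 23892943 per library, and the members took 0.314% to 0.430% of them. All 8 of 8 fibroblast markers (such as *Pdgfra*, *Col1a1* and *Dcn*) were above 3 counts in every library, and of 8 endothelial markers *Tie1*, *Emcn* and *Cldn5* were at or under 3 counts in every library. The summed level of these 8 was 23.9 to 27.9 CPM in control and 4.86 to 11.3 CPM in TGFβ libraries, with 1 or 2 of them above 3 counts throughout a group. One library stood apart. Descending control replicate 3 had a count for 13031 genes against 19337 to 20931 in the other 11 libraries, and 11.02% of its counts were mitochondrial against 0.703% to 1.03%. Of the 51 members that passed the filter, 17 were over 2-fold lower and 6 over 2-fold higher in it than in the mean of replicates 1 and 2, beside 31.5% and 14.2% of all genes that passed. The members were thus near the share over all genes. Between replicates 1 and 2, 1 member was over 2-fold apart. *Epha1*, *Sema4a*, *Sema4b*, *Sema4d* and *Unc5a* had 0 counts in it, and *Sema4b* and *Unc5a* had over 100 counts in each of replicates 1 and 2. The labels give no reason for this, so the library was kept, and counts that use descending control are given with all libraries and again without replicate 3. Values of single genes say which of these fits they come from where replicate 3 was left out.

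To show the regulatory DNA of members on which the comparisons turn, 4 promoter windows from RefSeq on GRCm38.p6 are printed, each from 250 bases before to 50 after the annotated start, in the orientation of the gene. *Sema7a* and *Ephb3* were chosen as ligand and receptor that rose with TGFβ, *Sema3c* as a ligand that fell, and *Slit3* for its unlike response at both sites. Capitals mark CAGAC or its reverse complement GTCTG, the letters at the core of SMAD binding elements, and would mark TGANTCA, the letters bound by AP-1. No motif match overlapped another in these windows. All 4 genes are on the plus strand. In the GENCODE annotation of GRCm38, *Slit3* is at chr11:35121224-35708507, *Sema7a* at chr9:57940112-57962865, *Sema3c* at chr5:17574281-17730268 and *Ephb3* at chr16:21204755-21223305. *Plxna4*, which has no printed window, is at chr6:32144268-32588192 on the minus strand. The windows lie at chr9:57939862-57940161 (*Sema7a*), chr16:21204545-21204844 (*Ephb3*), chr5:17574566-17574865 (*Sema3c*) and chr11:35121206-35121505 (*Slit3*).
Sema7a: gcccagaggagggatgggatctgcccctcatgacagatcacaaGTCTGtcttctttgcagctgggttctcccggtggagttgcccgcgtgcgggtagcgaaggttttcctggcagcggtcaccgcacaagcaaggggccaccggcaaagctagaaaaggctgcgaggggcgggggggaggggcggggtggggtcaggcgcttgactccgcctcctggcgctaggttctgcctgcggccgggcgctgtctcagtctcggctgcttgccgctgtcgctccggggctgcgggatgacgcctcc
Ephb3: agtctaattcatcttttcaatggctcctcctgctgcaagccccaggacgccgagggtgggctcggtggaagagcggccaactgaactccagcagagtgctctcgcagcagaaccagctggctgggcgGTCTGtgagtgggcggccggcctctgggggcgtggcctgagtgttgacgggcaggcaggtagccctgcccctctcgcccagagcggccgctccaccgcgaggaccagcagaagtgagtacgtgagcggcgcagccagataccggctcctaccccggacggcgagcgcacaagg
Sema3c: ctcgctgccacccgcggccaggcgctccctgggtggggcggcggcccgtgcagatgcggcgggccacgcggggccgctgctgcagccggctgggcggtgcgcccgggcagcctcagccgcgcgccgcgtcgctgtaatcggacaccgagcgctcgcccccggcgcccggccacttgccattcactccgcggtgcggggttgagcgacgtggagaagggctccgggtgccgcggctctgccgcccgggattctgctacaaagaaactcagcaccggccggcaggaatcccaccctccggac
Slit3: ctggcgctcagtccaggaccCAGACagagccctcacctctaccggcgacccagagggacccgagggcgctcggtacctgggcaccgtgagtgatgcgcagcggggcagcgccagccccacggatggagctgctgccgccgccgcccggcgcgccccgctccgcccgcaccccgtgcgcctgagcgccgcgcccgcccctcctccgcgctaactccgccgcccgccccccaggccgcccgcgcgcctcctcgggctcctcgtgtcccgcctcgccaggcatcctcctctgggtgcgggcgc

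*Sema7a*, *Ephb3* and *Slit3* each held 1 CAGAC match, with its first base at positions -207, -123 and -230 from the start, and *Sema3c* held none. Windows of *Sema6d*, which also fell with TGFβ, were read but are not printed. The one at chr2:124653331-124653630 held 1 CAGAC match, at position -152, and the one at chr2:124089719-124090018 held none. The printed windows are thus no contrast between genes that rose and genes that fell. Neither motif is rare. On both strands, 49.6% of the 32851 windows of this length in the table held CAGAC and 7.81% held TGANTCA. Of the 72 windows that matched 56 of the 65 members, 42 (58.3%) held CAGAC and 3 (4.17%) held TGANTCA. A match is a description of the letters and no evidence of binding.

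Levels per length, given as RPKM (normalized CPM per kilobase of exon, CPM being counts scaled to a fixed library total), show which members these fibroblasts carried most of. The netrin receptor *Unc5b* reached 107 ± 3.19 RPKM (SD, n = 3) in ascending TGFβ, and *Plxnb2*, a receptor of class 4 semaphorins, reached 92.03 ± 0.634 in the same group. *Sema3c*, a secreted semaphorin known for its part in septation of the outflow tract, was at 83.9 ± 34.3 RPKM in descending control, where its 3 libraries ran from 63.4 to 123. *Plxna1* was at 62.3 ± 3.93 and *Ntn4*, a netrin of basement membranes, at 52.2 ± 2.37 RPKM in descending TGFβ, and *Slit3* was at 34.7 ± 3.74 in ascending control. The Robos were low, with *Robo1* at 4.36 ± 0.230 and *Robo2* at 2.79 ± 0.205 RPKM in descending TGFβ, the group where both were highest.

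**Figure D1:**
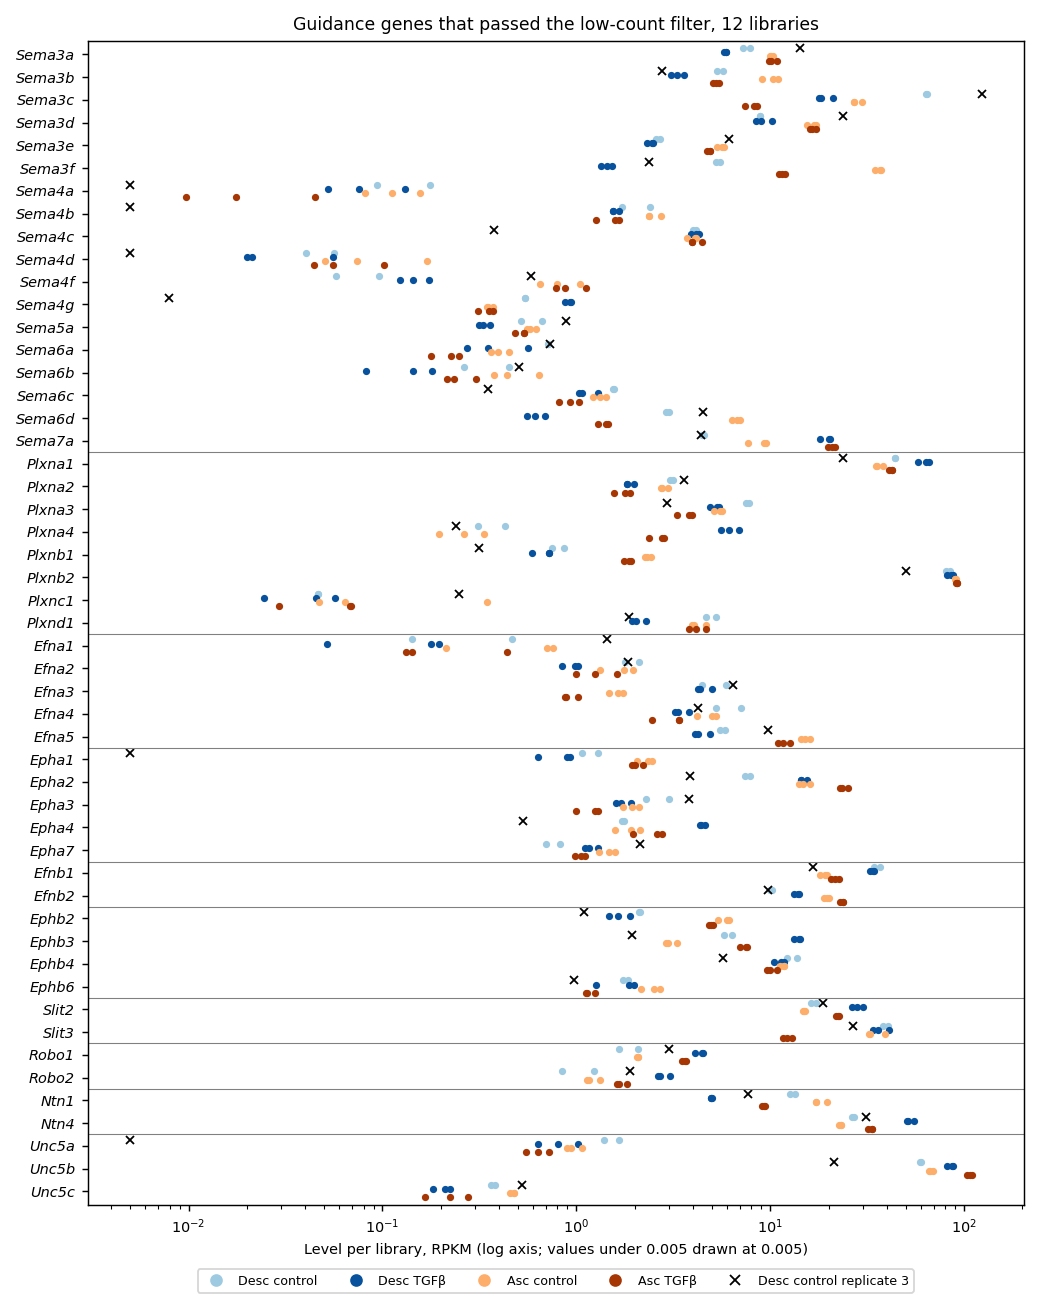
Level of each of the 51 guidance genes that passed the filter, in RPKM on a log axis, 1 point per library, coloured by group, with descending control replicate 3 drawn as a black cross. *Unc5b* and *Plxnb2* sit at the right, and the crosses of *Sema4b*, *Epha1* and *Unc5a* lie far left of their group.

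The 14 members that missed the filter were *Sema3g*, *Sema5b*, *Plxnb3*, *Efnb3*, *Epha5*, *Epha6*, *Epha8*, *Epha10*, *Ephb1*, *Slit1*, *Robo3*, *Robo4*, *Ntn5* and *Unc5d*. *Epha6*, *Epha8* and *Robo4*, the last a Robo of endothelial cells, had 0 counts in all 12 libraries, which allows a level of up to 0.117 to 0.207 CPM in a library (3 counts of its scaled total). The highest count of any of the 14 in a library was 18, for *Plxnb3* in ascending control replicate 1. By family, 18 of 20 semaphorins, 8 of 9 plexins, 5 of 5 ephrin-A, 2 of 3 ephrin-B, 5 of 9 EphA, 4 of 5 EphB, 2 of 3 Slit, 2 of 4 Robo, 2 of 3 netrin and 3 of 4 Unc5 genes passed.

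The first comparison asked how TGFβ changed these genes at each site. In ascending fibroblasts 37 of the 50 members tested passed edgeR's quasi-likelihood test at an adjusted p under 0.05, 13 higher and 24 lower with TGFβ, beside 55.8% of all 13917 genes tested (28.2% higher and 27.6% lower). Most semaphorins that changed fell, both Robos and both ephrin-B ligands rose, and *Plxna4* rose the most. The median log2 fold change was -0.29 over the members and -0.45 over the 28 ligands tested, against -0.0044 over all genes. In descending fibroblasts 9 of 48 members passed with all libraries, 4 higher and 5 lower, beside 8.07% of 13825 genes (3.59% higher and 4.48% lower). Of these 9 calls, 5 or 6 were lost when any 1 library other than control replicate 3 was left out. Calls of single genes were checked in 9 alternatives each, namely DESeq2, its size factors, a block for the replicate number, and each of the 6 libraries left out. Without descending control replicate 3 the count was 37 of 48, 14 higher and 23 lower, beside 52.9% of 14311 genes (26.6% higher and 26.3% lower). The 2 groups did not overlap for 37 of 50 members in ascending fibroblasts (61.3% of all genes), 28 of 48 in descending ones (43.5%) and 41 of 48 there without replicate 3 (67.3%). The median over the members in descending fibroblasts was -0.07 with all libraries and -0.22 without replicate 3, against 0.02 and -0.01 over all genes. Of the 47 members tested at both sites, 31 passed at both without replicate 3 (83.8% of the 37 in ascending and 83.8% of the 37 in descending), 30 of them in the same direction and *Epha7* in the opposite one. With all libraries, the 9 that passed in descending fibroblasts all passed in ascending fibroblasts in the same direction (24.3% of the 37). The matching shares over all genes were not computed, so that these overlaps are not read as a trait of the members. These are bulk cultures, so that a change in RNA per cell and a change in the share of cells that carry it cannot be told apart. The summed level of 6 smooth muscle markers, all above 3 counts in every library, moved with TGFβ too, from 2437 to 2518 CPM up to 7900 to 8325 CPM in descending and from 1539 to 1655 CPM up to 5056 to 5151 CPM in ascending libraries. In ascending fibroblasts 4 of these 6 rose and 2 fell. Markers of other cell types moved as well. The sum of 4 pericyte markers, with *Kcnj8* at or under 3 counts in every library, went from 109 to 119 up to 215 to 233 CPM in ascending and from 66.8 to 182 up to 426 to 494 CPM in descending libraries, and that of 5 neuron markers, with *Rbfox3* at or under 3 counts, from 157 to 166 up to 242 to 248 CPM and from 51.1 to 102 up to 165 to 172 CPM. *Abcc9* and *Elavl4* were also at or under 3 counts in descending libraries, and *Snap25* and *Elavl4* in ascending TGFβ libraries. These sums rest on few of the listed genes. In ascending fibroblasts 2 of 2 pericyte markers and 1 of 1 neuron marker tested rose. In descending fibroblasts 1 of 2 and 0 of 2 rose with all libraries, and 2 of 2 and 1 of 2 without replicate 3. The sum of 5 mesothelial markers was 33.5 to 44.2 CPM in ascending control and 19.7 to 26.5 CPM with TGFβ (2 of 4 tested fell), and that of 6 Schwann cell markers 26.96 to 32.8 and 19.3 to 20.6 CPM (2 of 5 fell). Of 8 fibroblast markers 3 rose and 5 fell in ascending fibroblasts. The endothelial sum given above was lower with TGFβ at both sites. No test was run on these sums. The sum of 6 macrophage markers went from 51.2 to 341.3 down to 28.6 to 40.6 CPM in ascending libraries, where 5 of 5 tested fell, and from 25.5 to 45.04 to between 13.5 and 25.9 CPM in descending ones, where 0 of 4 passed with all libraries and 3 of 5 fell without replicate 3. The part of these markers in the results below was not tested.

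**Figure D2:**
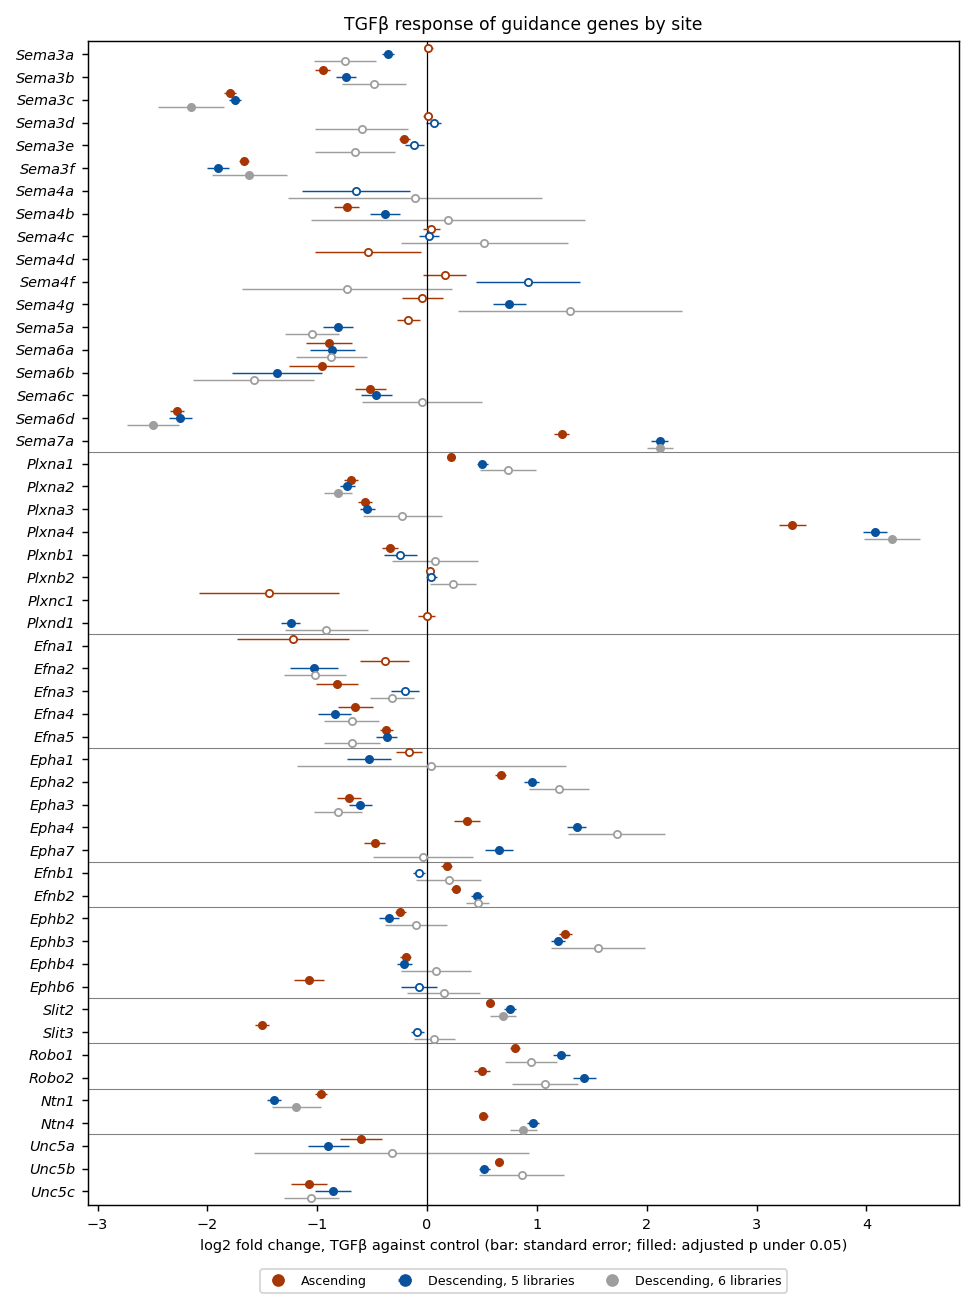
log2 fold change with TGFβ of each guidance gene tested (points, with standard errors as bars; filled where the adjusted p is under 0.05) in ascending fibroblasts, and in descending fibroblasts with 6 libraries and with the 5 left without control replicate 3. *Plxna4* lies furthest right at 3.33 in ascending and 4.23 in descending fibroblasts, *Sema6d* furthest left at -2.28 and -2.49, and the bars of the 6-library fit are wide.

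Among semaphorins, 1 of 17 tested rose and 9 fell in ascending fibroblasts, beside 28.2% and 27.6% of all genes. In descending fibroblasts 1 rose and 3 fell of 17 with all libraries, beside 3.59% and 4.48%, and 2 rose and 10 fell of 17 without replicate 3, beside 26.6% and 26.3%. *Sema6d*, a transmembrane semaphorin that binds *Plxna1*, had 67.4, 74.1 and 71.3 normalized CPM in ascending control replicates 1 to 3 and 14.99, 15.4 and 13.6 with TGFβ. The groups lay far apart, and the fall was significant (log2 fold change -2.28, SE 0.06, edgeR adjusted p = 1.0e-14). In descending fibroblasts *Sema6d* went from 30.8, 31.6 and 47.8 CPM in control to 7.25, 5.91 and 6.48 CPM, again without overlap (log2 fold change -2.49, SE 0.24, edgeR adjusted p = 0.0038, and -2.25 without replicate 3).

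*Sema3c* fell as well. Its ascending control libraries were at 192, 213 and 192 CPM and its treated ones at 58.7, 52.7 and 61.01 (log2 fold change -1.80, SE 0.06, edgeR adjusted p = 4.8e-14). Descending control had 453, 462 and 882 CPM, the last value being replicate 3, and descending TGFβ had 131, 149.7 and 127 (log2 fold change -2.15, SE 0.30, edgeR adjusted p = 0.013). Replicate 3 was the highest of all 12 libraries, and without it the change was -1.75 (SE 0.06, edgeR adjusted p = 2.1e-21). *Sema3f*, a class 3 semaphorin that prefers neuropilin 2, fell from 194, 192 and 180.4 to 62.1, 57.4 and 59.9 CPM in ascending fibroblasts (log2 fold change -1.66, SE 0.04, edgeR adjusted p = 7.6e-15). In descending fibroblasts it was far lower to begin with, at 27.4, 28.6 and 12.3 CPM, and fell to 6.94, 7.92 and 7.47 CPM (log2 fold change -1.62, SE 0.34, edgeR adjusted p = 0.043, and -1.91, SE 0.10, without replicate 3).

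*Sema7a*, a lipid-anchored semaphorin that signals through plexin C1 and β1 integrin, was the semaphorin that rose at both sites. Ascending control libraries had 31.4, 30.7 and 25.3 CPM and treated ones 65.6, 68.7 and 71.3 (log2 fold change 1.23, SE 0.07, edgeR adjusted p = 1.1e-10). Descending control libraries had 14.99, 14.8 and 14.5 CPM, replicate 3 being close to the other 2, and treated ones 59.6, 66.9 and 66.6 (log2 fold change 2.12, SE 0.12, edgeR adjusted p = 0.0011, and 2.12 without replicate 3). The treated groups overlapped between sites while the control groups did not. The other semaphorins that fell in ascending fibroblasts were *Sema6b* (-0.96 on the log2 scale), *Sema3b* (-0.95), *Sema6a* (-0.89), *Sema4b* (-0.73), *Sema6c* (-0.52) and *Sema3e* (-0.21). *Sema6b* missed without ascending control replicate 3 (edgeR adjusted p = 0.088). *Sema6b*, *Sema3b*, *Sema6a*, *Sema4b* and *Sema6c* also fell in descending fibroblasts without replicate 3, by 1.37, 0.74, 0.86, 0.38 and 0.46, and none of these 5 passed with all libraries. Over single libraries left out *Sema4b* ran from -0.38 to 0.86 and *Sema6c* from -0.46 to 0.25. Without that library *Sema6b* had an SE of 0.41 and an edgeR adjusted p of 0.0058. *Sema5a* (-0.81) and *Sema3a* (-0.36) fell and *Sema4g* rose (0.75) in descending fibroblasts without replicate 3, while in ascending fibroblasts these 3 had -0.17, 0.01 and -0.04 and did not pass.

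Per length, the summed level of the class 3 semaphorins was lower with TGFβ, mainly through *Sema3c* and, in ascending fibroblasts, *Sema3f*, while *Sema3a* and *Sema3d* did not pass there. This sum (*Sema3a* to *Sema3g*, the last of which missed the filter) was 107, 110.1 and 103 RPKM in ascending control and 57.5, 55.04 and 56.9 with TGFβ. In descending cells the sum was 93.1, 94.96 and 173 RPKM in control and 39.6, 44.7 and 39.5 with TGFβ. *Sema3c* held 68.1% to 71.4% of the sum in descending control and 45.02% to 46.9% with TGFβ, against 25.3% to 27.1% and 13.4% to 15.01% in ascending control and TGFβ. *Sema3f* held 33.6% to 35.1% in ascending control and 20.1% to 20.8% with TGFβ, and 1.37% to 5.79% in descending control, where replicate 3 was lowest. *Sema3d*, which did not pass either TGFβ comparison, took a larger share with TGFβ, 28.3% to 30.1% against 14.5% to 16.3% in ascending libraries. No test was run on these sums and shares.

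**Figure D3:**
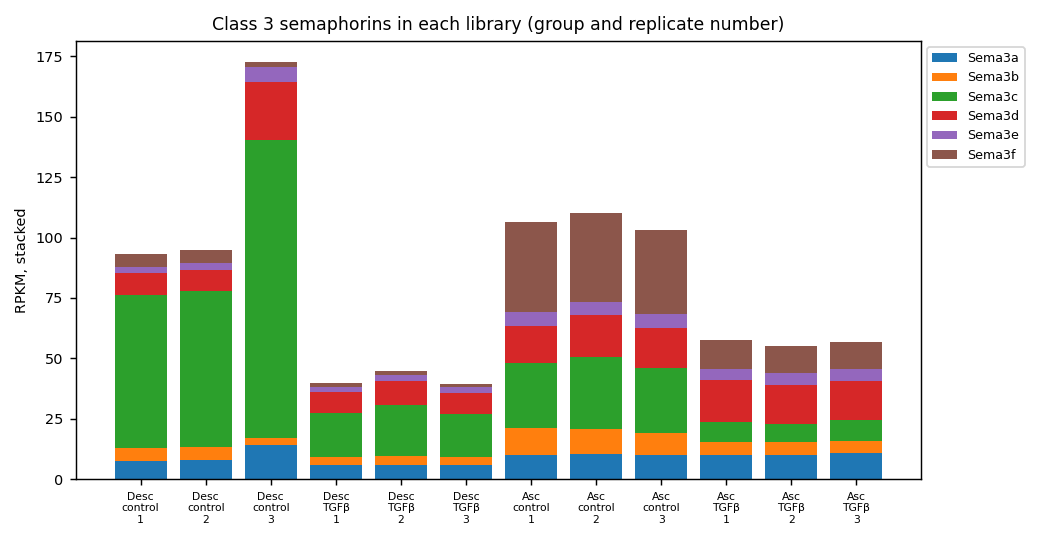
Level of each of the 6 class 3 semaphorins that passed the filter, in RPKM, stacked for each of the 12 libraries. *Sema3c* (68.1% to 71.4% of the sum) fills most of the descending control bars, *Sema3f* is a broad band in ascending libraries only, and the bar of descending control replicate 3 reaches 172.8 RPKM, the tallest.

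Among their receptors, *Plxna4* had the largest change of any member. This plexin, which works with neuropilin 1 in the response to *Sema3a* and binds class 6 semaphorins, was near 3.72 CPM in ascending control (3.70, 4.70 and 2.78) and at 40.02, 38.9 and 33.5 CPM with TGFβ (log2 fold change 3.33, SE 0.12, edgeR adjusted p = 4.9e-13). In descending fibroblasts it went from 4.40, 6.03 and 3.38 to 78.5, 97.1 and 86.7 CPM (log2 fold change 4.23, SE 0.25, edgeR adjusted p = 0.0013, and 4.08, SE 0.11, without replicate 3). No treated library overlapped a control one at either site. *Plxna1* rose in ascending fibroblasts (0.21 on the log2 scale) and, without replicate 3, in descending ones (0.50). *Plxna2* fell at both sites (-0.69 in ascending, and log2 fold change -0.81, SE 0.13, edgeR adjusted p = 0.017 in descending with all libraries, or -0.73 without replicate 3), as did *Plxna3* without replicate 3 (-0.57 and -0.55). *Plxnb1* fell in ascending fibroblasts (-0.34) and had -0.24 in descending ones without replicate 3, where it did not pass, and this difference did not pass the interaction test below. *Plxnd1*, the receptor of *Sema3e* in blood vessels, had 34.02, 38.4 and 13.7 CPM in descending control and 16.7, 14.9 and 14.2 with TGFβ. It fell by 1.24 on the log2 scale without replicate 3, and with that library, which is below all 3 treated ones, its value was -0.92 (edgeR adjusted p = 0.22). *Plxnb2*, the most abundant plexin, did not pass at either site with all libraries (0.02 and 0.23) or without replicate 3 (0.04 in descending).

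Of the 5 ephrin-A ligands tested in ascending fibroblasts 0 rose and 3 fell, beside 28.2% and 27.6% of all genes: *Efna3* (-0.82 on the log2 scale), *Efna4* (-0.65) and *Efna5* (-0.37). The 2 ephrin-B ligands tested rose by small amounts, *Efnb2* (0.26, from 137, 135 and 129 to 164, 156 and 163 CPM) and *Efnb1* (0.18). In descending fibroblasts without replicate 3, *Efna2* (-1.03), *Efna4* (-0.84) and *Efna5* (-0.37) fell and *Efnb2*, the ephrin that marks arteries, rose (0.45). *Efnb1* was at -0.08 there and did not pass. With all libraries *Efnb2* had 0.46 (edgeR adjusted p = 0.053) and *Efna2* -1.02 (edgeR adjusted p = 0.089) in descending fibroblasts, and neither passed. *Efna4* and *Efna5* did not pass with all libraries either, and each passed in 1 of 9 alternatives. Over single libraries left out they ran from -0.84 to -0.46 and from -0.82 to -0.37.

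Among Eph receptors, *Ephb3* rose most in ascending fibroblasts, from 19.7, 19.2 and 22.1 CPM to 46.2, 49.97 and 50.3 CPM (log2 fold change 1.26, SE 0.06, edgeR adjusted p = 2.7e-11). Its descending libraries were at 42.2, 38.4 and 12.9 CPM in control and 87.9, 94.96 and 93.2 CPM with TGFβ, without overlap, and the change was 1.55 with all libraries (edgeR adjusted p = 0.09) and 1.19 without replicate 3 (edgeR adjusted p = 7.6e-16). *Epha2*, a receptor of ephrin-A1, rose in ascending fibroblasts (0.67) and in descending ones without replicate 3 (0.95). *Epha4*, which binds ephrins of both classes, rose from 17.2, 12.8 and 15.4 to 20.9, 22.2 and 15.8 CPM in ascending fibroblasts, where 1 treated library lay inside the control range (0.37). This call passed in 7 of 9 alternatives and missed without TGFβ replicate 1 or 2, with adjusted p up to 0.107. In descending fibroblasts it was at 13.9, 14.1 and 4.28 CPM in control and 37.3, 35.5 and 35.04 CPM with TGFβ (1.36 without replicate 3, where it passed, and 1.73 with an edgeR adjusted p of 0.074 with all libraries). *Ephb6*, a receptor without kinase activity, fell in ascending fibroblasts (-1.07), as did *Epha3* (-0.71), *Epha7* (-0.48), *Ephb2* (-0.24) and *Ephb4* (-0.20). Without replicate 3, *Epha3* (-0.61), *Epha1* (-0.53), *Ephb2* (-0.35) and *Ephb4* (-0.21) fell in descending fibroblasts and *Epha7* rose (0.65). None of these 5 passed with all libraries, and leaving out other single libraries gave the opposite sign for *Epha1* (up to 0.59), *Ephb2* (up to 0.055), *Ephb4* (up to 0.33) and *Epha7* (down to -0.31).

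Of the 4 Slit and Robo genes tested in ascending fibroblasts 3 rose and *Slit3* fell, beside 28.2% and 27.6% of all genes. In descending fibroblasts 1 of these 4 rose with all libraries, beside 3.59% of all genes, and 3 without replicate 3, beside 26.6%. *Slit2* went from 377, 380.1 and 387 to 556, 574 and 572 CPM in ascending fibroblasts (0.57 on the log2 scale) and from 413, 437 and 477 to 669, 764 and 717 CPM in descending ones, where it passed with all libraries (0.69, and 0.76 without replicate 3). *Robo1* (0.80) and *Robo2* (0.50) rose in ascending fibroblasts, and by 1.22 and 1.43 in descending ones without replicate 3 (SE 0.10 and edgeR adjusted p = 6.0e-13 for *Robo2*). With all libraries these were 0.95 and 1.07, and neither passed. *Slit3* was the exception. Its ascending libraries fell from 196, 237 and 199 CPM in control to 78.6, 74.5 and 70.3 CPM with TGFβ (log2 fold change -1.51, SE 0.06, edgeR adjusted p = 3.4e-12), while its descending libraries were at 231, 246 and 162 CPM in control and 206, 248 and 218 CPM with TGFβ (0.06, and -0.09 without replicate 3, neither past the threshold). *Slit3* thus had 2.16 to 2.61 times the RPKM of *Slit2* in ascending control libraries and 0.515 to 0.592 times with TGFβ, against 1.43 to 2.36 times in descending control, where replicate 3 was lowest, and 1.27 to 1.36 times in descending TGFβ.

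Both expressed netrins passed at both sites, in opposite directions, but in descending fibroblasts each passed in only 3 of 9 alternatives (adjusted p up to 0.171 for *Ntn1* and 0.114 for *Ntn4*). *Ntn1*, the diffusible netrin, went from 108, 124 and 108 to 57.00, 58.4 and 58.7 CPM in ascending fibroblasts (-0.97) and from 84.7, 79.1 and 48.5 to 31.04, 30.97 and 31.4 CPM in descending ones (log2 fold change -1.19, SE 0.23, edgeR adjusted p = 0.031, and -1.39, SE 0.06, without replicate 3). *Ntn4* went from 87.1, 87.2 and 84.4 to 125, 126 and 119 CPM in ascending fibroblasts (0.51) and from 102, 99.1 and 117 to 191, 205 and 189 CPM in descending ones (log2 fold change 0.87, SE 0.12, edgeR adjusted p = 0.013, and 0.96 without replicate 3). The RPKM of *Ntn4* was 1.18 to 1.35 times that of *Ntn1* in ascending control and 3.41 to 3.67 times with TGFβ, against 2.01 to 4.05 times in descending control and 10.1 to 11.1 times with TGFβ. Of the Unc5 receptors, *Unc5b* rose (0.66 in ascending, 0.52 in descending without replicate 3). *Unc5c* fell in ascending fibroblasts (log2 fold change -1.08, SE 0.16, edgeR adjusted p = 2.8e-05) and *Unc5a* fell there too (-0.60). Both also fell in descending fibroblasts without replicate 3 (-0.86 and -0.90), and neither they nor *Unc5b* passed with all libraries. Over single libraries left out *Unc5a* ran from -0.90 to 0.23.

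The second comparison set ascending against descending fibroblasts. With TGFβ, where no library stood apart, 35 of 47 members passed, of which 18 were higher at the ascending site and 17 at the descending one, beside 36.3% of 13678 genes (18.1% and 18.2%). Without TGFβ, 5 of 50 passed with all libraries, beside 2.65% of 14090 genes (1.19% with ascending above, 1.47% with descending above). These were *Sema3f*, *Ephb2*, *Sema7a* and *Efnb2*, higher in ascending, and *Efna3*, higher in descending fibroblasts. That count rested on each library: leaving out any 1 of the other 5 libraries left 0 members past the adjusted threshold in edgeR, with 12 to 15 at an unadjusted p under 0.05, and DESeq2 on all 6 libraries called 12. The share of all genes was not computed for these fits, so that their counts are not read as a trait of the members. Without descending control replicate 3, 33 of 52 passed, 20 higher at the ascending site and 13 at the descending one, beside 31.6% of 14644 genes (16.4% and 15.2%). The sites did not overlap for 37 of 47 members with TGFβ (46.1% of all genes), 22 of 50 in control (35.3%) and 38 of 52 in control without replicate 3 (54.4%). Of the 47 members tested both with TGFβ and in control without replicate 3, 32 passed in that control fit and 35 with TGFβ. Of these, 29 passed in both (90.6% and 82.9%), 27 in the same direction. This overlap was not counted with all libraries or over all genes, so that it is not read as a trait of the members. *Ephb6* (0.46 in control without replicate 3 and -0.54 with TGFβ) and *Plxnd1* (-0.22 and 1.01) went opposite ways. In control both passed in 1 of 9 alternatives, the one without replicate 3, and the value of *Plxnd1* ran from -0.22 to 0.37 over single libraries left out. With TGFβ *Plxnd1* passed in 9 of 9 and *Ephb6* in 7 of 9, missing without descending TGFβ replicate 1 or 3, with adjusted p up to 0.0861. Markers of other cell types also differed by site. With TGFβ the summed smooth muscle level given above was lower in ascending libraries (4 of 6 markers lower), as were that of pericytes (2 of 2 tested lower) and the endothelial one, at 4.86 to 5.73 against 9.65 to 11.3 CPM (2 of 2 tested lower). Of 8 fibroblast markers 2 were higher and 6 lower in ascending TGFβ. The macrophage sum was 28.6 to 40.6 CPM in ascending against 13.5 to 25.9 CPM in descending TGFβ libraries (3 of 5 tested higher), the Schwann cell sum 19.3 to 20.6 against 13.6 to 16.3 CPM (2 of 5 higher, with *Sox10* at or under 3 counts in the latter), and the neuron sum 242 to 248 against 165 to 172 CPM (1 of 1 tested higher). The summed level of 5 mesothelial markers was 33.5 to 44.2 CPM in ascending and 6.90 to 13.1 CPM in descending control libraries and 19.7 to 26.5 against 12.3 to 13.9 CPM in TGFβ libraries, with *Wt1* at or under 3 counts in all of them. In control without replicate 3, 5 of 6 smooth muscle and 2 of 2 pericyte markers tested were lower in ascending fibroblasts, and 3 of 5 macrophage and 3 of 5 Schwann cell markers were higher. The part of these markers in the site results was not tested.

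**Figure D4:**
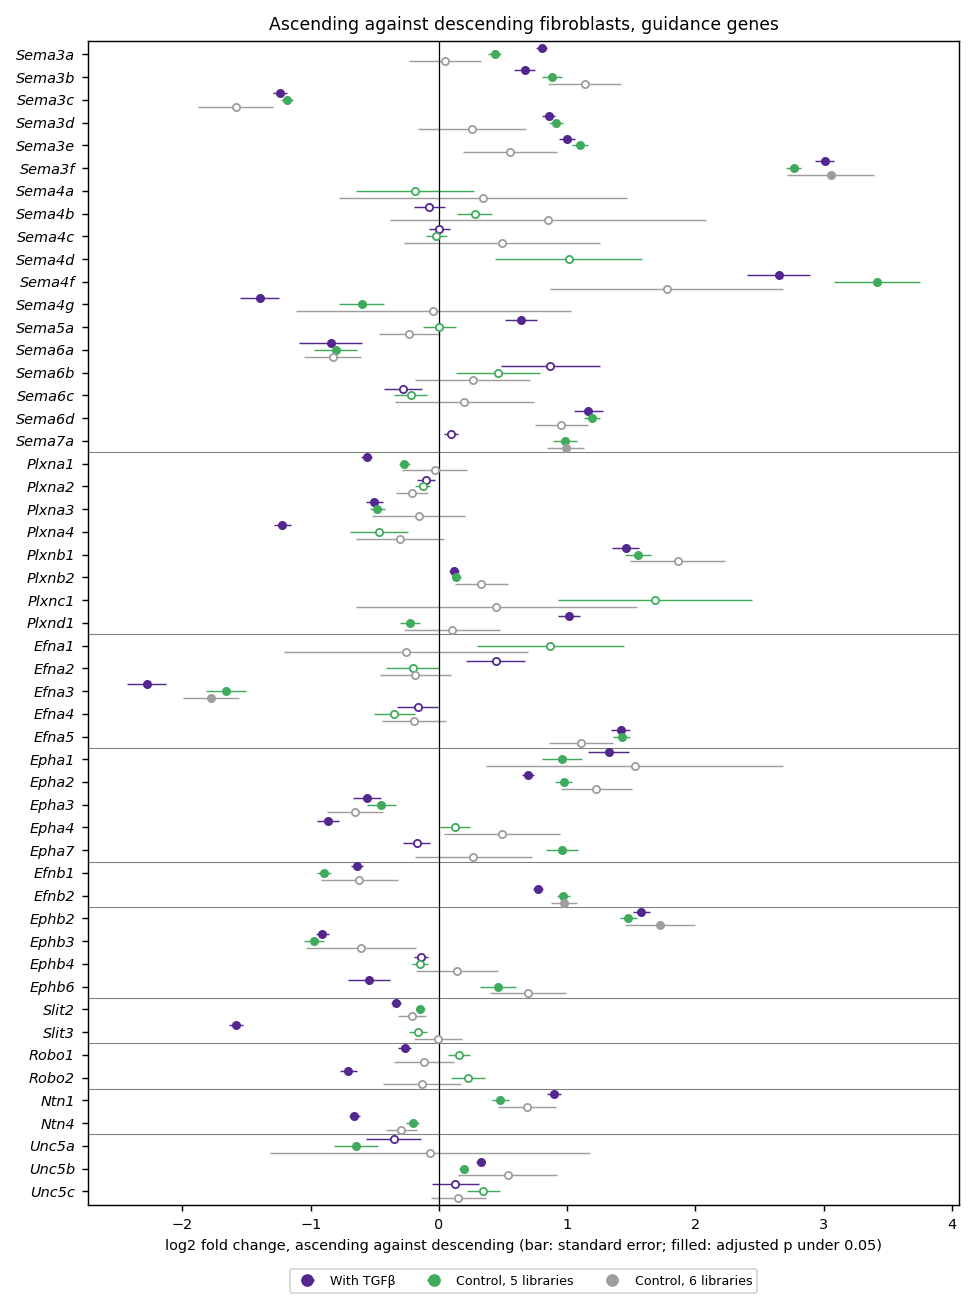
log2 fold change of ascending against descending fibroblasts for each guidance gene tested (points, with standard errors as bars; filled where the adjusted p is under 0.05), with TGFβ, and in control with 6 libraries and with the 5 left without descending control replicate 3. *Sema3f* (3.01 with TGFβ) lies on the right and *Efna3* (-2.28) and *Slit3* (-1.59) on the left, the last with TGFβ.

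*Sema3f* had the largest site difference with TGFβ, at 62.1, 57.4 and 59.9 CPM in ascending and 6.94, 7.92 and 7.47 CPM in descending libraries (log2 fold change 3.01, SE 0.08, edgeR adjusted p = 6.8e-23). In control the values were 194, 192 and 180.4 CPM against 27.4, 28.6 and 12.3 CPM (log2 fold change 3.06, SE 0.34, edgeR adjusted p = 0.012, and 2.77, SE 0.06, without replicate 3). The lowest ascending library was several times the highest descending one at the same treatment. *Sema4f*, a transmembrane semaphorin at low level, had 4.65, 5.92 and 4.14 CPM in ascending and 0.919, 0.651 and 0.757 CPM in descending TGFβ libraries (log2 fold change 2.65, SE 0.25, edgeR adjusted p = 4.9e-10). In control it was at 3.43, 5.55 and 4.19 CPM against 0.506, 0.304 and 3.10, where replicate 3 stood far above its group, and it did not pass with all libraries (1.78, edgeR adjusted p = 0.49). Without replicate 3 it is 1 of the 33 members counted, but with 13 and 7 counts in descending control it entered that fit through the ascending libraries, where it is high, and nothing is read from its difference there.

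*Sema3c* ran the other way, higher in descending fibroblasts, with -1.24 under TGFβ and -1.19 (SE 0.05, edgeR adjusted p = 3.1e-10) in control without replicate 3. *Sema4g*, at 3.24, 2.70 and 3.07 CPM in ascending and 8.12, 8.08 and 7.57 CPM in descending TGFβ libraries, was likewise higher in descending fibroblasts (log2 fold change -1.40, SE 0.15, edgeR adjusted p = 1.1e-08), and so was *Sema6a* (-0.84), which missed without descending TGFβ replicate 2 (-0.51, edgeR adjusted p = 0.13). Of the other semaphorins, *Sema6d* (1.16), *Sema3e* (1.001), *Sema3d* (0.85), *Sema3a* (0.80), *Sema3b* (0.67) and *Sema5a* (0.64) were higher in ascending fibroblasts with TGFβ. The first 5 of these 6 also passed in control without replicate 3, and *Sema5a* did not (0.0021). These 5 control calls held in 1 or 2 of 9 alternatives each, and over single libraries left out *Sema3a* ran from -0.12 to 0.44, *Sema3d* from 0.019 to 0.91 and *Sema3e* from 0.34 to 1.10. *Sema7a* was higher in ascending control with all libraries (log2 fold change 0.99, SE 0.14, edgeR adjusted p = 0.026, and 0.98 without replicate 3) and at 0.09 with TGFβ, where it did not pass.

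*Plxnb1*, the receptor of *Sema4d*, was at 17.97, 16.99 and 18.5 CPM in ascending and 6.94, 6.94 and 5.67 CPM in descending TGFβ libraries (log2 fold change 1.46, SE 0.11, edgeR adjusted p = 3.8e-12), and the control groups did not overlap either (1.55 without replicate 3, and 1.86 with an edgeR adjusted p of 0.071 with it). *Plxnd1* (1.01) and *Plxnb2* (0.12) were also higher in ascending fibroblasts with TGFβ, *Plxnb2* missing without descending TGFβ replicate 1 (edgeR adjusted p = 0.077). *Plxna4* (-1.22), *Plxna1* (-0.56) and *Plxna3* (-0.50) were higher in descending ones. *Plxnb3* missed the filter over the 4 groups and entered the fits between sites in control and of the interaction without replicate 3 through its ascending control counts of 18, 12 and 8, against 3, 2 and 0 in descending control. It is 1 of the 33 members counted in that site comparison, and since it entered through the group where it is high, nothing is read from its difference.

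With TGFβ 1 of 4 ephrin-A ligands tested was higher and 1 lower in ascending than in descending fibroblasts, as were 1 and 1 of 2 ephrin-B ligands, 2 and 2 of 5 EphA and 1 and 2 of 4 EphB receptors, beside 18.1% and 18.2% of all genes. *Efna5*, known from the retinal map, had 51.2, 46.8 and 44.1 CPM in ascending and 16.5, 19.6 and 17.1 CPM in descending TGFβ libraries (log2 fold change 1.42, SE 0.07, edgeR adjusted p = 1.6e-15), and 1.42 in control without replicate 3. *Efna3* had 2.14, 2.13 and 2.49 CPM in ascending and 10.3, 12.1 and 10.5 CPM in descending TGFβ libraries (log2 fold change -2.28, SE 0.15, edgeR adjusted p = 3.4e-13). In control it was at 4.26, 3.998 and 3.61 CPM against 14.4, 10.8 and 15.7 CPM (log2 fold change -1.78, SE 0.22, edgeR adjusted p = 0.016, and -1.66 without replicate 3), and no descending library, replicate 3 included, came down to the ascending ones. *Efnb2* was higher in ascending fibroblasts, with 137, 135 and 129 CPM against 68.4, 69.7 and 66.5 CPM in control (log2 fold change 0.98, SE 0.10, edgeR adjusted p = 0.0095, and 0.97 without replicate 3) and 0.77 with TGFβ. *Efnb1*, an X-linked ephrin-B, was higher in descending fibroblasts with TGFβ (-0.64) and in control without replicate 3 (-0.90). The control call passed in that 1 of 9 alternatives only, and its value ran from -0.90 to -0.42 over single libraries left out. Replicate 3, at 57.5 CPM, was below the ascending control libraries at 67.8, 66.3 and 62.3 CPM. *Efnb1* thus had 0.956 to 0.980 times the RPKM of *Efnb2* in ascending control libraries and 0.861 to 0.955 times with TGFβ, against 1.72 to 3.70 times in descending control and 2.37 to 2.55 times in descending TGFβ libraries.

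*Ephb2* was the Eph receptor furthest above its descending level, at 61.3, 62.3 and 63.9 CPM in ascending and 20.7, 23.8 and 18.6 CPM in descending TGFβ libraries (log2 fold change 1.58, SE 0.07, edgeR adjusted p = 1.7e-17), and in control (log2 fold change 1.72, SE 0.27, edgeR adjusted p = 0.036, and 1.48 without replicate 3). *Epha1* (1.32) and *Epha2* (0.69) were higher in ascending TGFβ libraries too. *Ephb3* (-0.91), *Epha4* (-0.87), *Epha3* (-0.56) and *Ephb6* (-0.54) were higher in descending ones. *Ephb3* thus had 1.43 to 1.52 times the RPKM of *Ephb2* in ascending TGFβ and 7.59 to 9.52 times in descending TGFβ libraries.

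*Slit3* was lower in ascending than in descending TGFβ libraries (log2 fold change -1.59, SE 0.05, edgeR adjusted p = 1.1e-19), and had -0.01 in control with all libraries and -0.16 without replicate 3, neither past the threshold. *Slit2* (-0.33), *Robo1* (-0.27) and *Robo2* (-0.71) were lower in ascending than in descending TGFβ libraries. *Ntn1* was higher (0.90) and *Ntn4* lower (-0.66) in ascending TGFβ, and *Unc5b* was higher (0.33). In control without replicate 3, *Slit2* (-0.14), *Ntn1* (0.48), *Ntn4* (-0.21) and *Unc5b* (0.19) kept these directions and passed, each in that 1 of 9 alternatives only, while *Robo1* (0.16) and *Robo2* (0.23) did not pass.

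The third comparison tested directly whether the TGFβ response differed between sites, as the ascending response minus the descending response. With all 12 libraries 2 of 51 members passed, both negative, beside 0.806% of 14637 genes (0.321% positive and 0.485% negative). They were *Slit3* (log2 difference -1.57, SE 0.21, edgeR adjusted p = 0.01) and *Sema7a* (log2 difference -0.89, SE 0.14, edgeR adjusted p = 0.018). For *Slit3* this is the fall in ascending fibroblasts against no detectable change in descending ones, and for *Sema7a* a smaller rise in ascending fibroblasts from a higher control level. Both calls depended on single libraries. Over 15 alternatives (DESeq2, its size factors, the block and each of the 12 libraries left out) *Slit3* passed in 14, missing without ascending TGFβ replicate 3 with an adjusted p of 0.0523, and *Sema7a* passed in 7, with adjusted p up to 0.0725. Without the low-count filter *Slit3* passed (edgeR adjusted p = 0.0095) and *Sema7a* did not (edgeR adjusted p = 0.058), and with a filter of 10 counts in every library both passed.

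Without descending control replicate 3, 19 of 52 members passed the interaction, 5 positive and 14 negative, beside 13.5% of 15013 genes (6.07% and 7.4%). *Slit3* (log2 difference -1.41, SE 0.10, edgeR adjusted p = 2.8e-10) and *Sema7a* (log2 difference -0.88, SE 0.11, edgeR adjusted p = 2.6e-06) were among them. *Plxnd1* had the largest positive value (log2 difference 1.24, SE 0.12, edgeR adjusted p = 9.5e-08), being flat in ascending fibroblasts at 28.7, 33.9 and 29.6 CPM in control and 30.1, 27.9 and 34.3 CPM with TGFβ. *Epha7* (log2 difference -1.13, SE 0.16, edgeR adjusted p = 1.4e-05) fell in ascending and rose in descending fibroblasts, from 14.7, 12.9 and 15.7 to 9.77, 10.5 and 10.9 CPM and from 6.89, 8.11 and 21.1 to 11.5, 12.8 and 11.02 CPM. Descending control replicate 3, left out of this fit, is above all 3 treated libraries. *Ephb6* (log2 difference -0.997, SE 0.22, edgeR adjusted p = 0.0028) fell in ascending fibroblasts and had -0.07 in descending ones. *Epha4* (log2 difference -0.99, SE 0.15, edgeR adjusted p = 5.0e-05) and *Robo2* (log2 difference -0.93, SE 0.15, edgeR adjusted p = 5.4e-05) rose at both sites and more in descending fibroblasts, as did *Plxna4* (-0.75). *Sema4g* (log2 difference -0.79, SE 0.22, edgeR adjusted p = 0.017) rose in descending fibroblasts and had -0.04 in ascending ones.

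The other negative values were those of *Ntn4* (-0.45), *Robo1* (-0.42), *Plxna1* (-0.29), *Epha2* (-0.28), *Efnb2* (-0.19) and *Slit2* (-0.18), each of which rose at both sites and by more in descending fibroblasts. The other positive values were those of *Sema5a* (0.65), *Ntn1* (0.43), *Sema3a* (0.37) and *Efnb1* (0.26). Of the 17 members called here but not with all libraries, *Robo1* and *Efnb1* changed the sign of their interaction when single libraries were left out. *Sema3c*, *Sema3f*, *Sema6d* and *Ephb3*, which changed much at both sites, had -0.04, 0.25, -0.03 and 0.07 and did not pass.

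**Figure D5:**
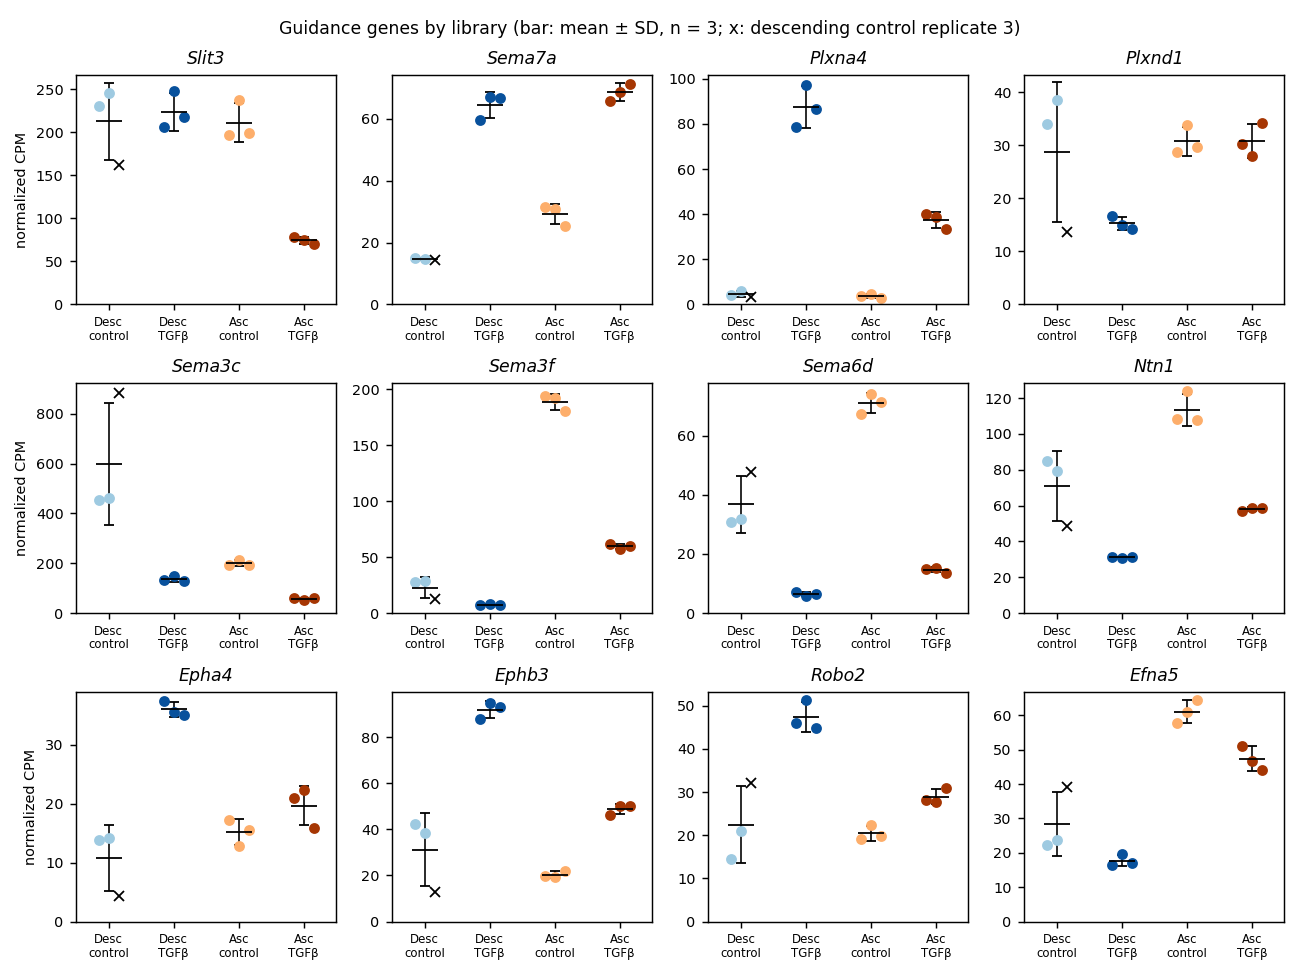
Normalized CPM of 12 guidance genes in the 4 groups, 1 point per library, with the mean and SD of 3 libraries as bars and descending control replicate 3 as a black cross. *Slit3* drops in ascending TGFβ alone, *Sema7a* and *Plxna4* rise at both sites, *Sema3f* is high in ascending libraries only, and the cross lies far from its group for *Sema3c*, *Plxnd1* and *Ephb3*.

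Coreceptors and signal transducers of these pathways were counted from 2 further lists, of 23 and 46 genes. With TGFβ in ascending fibroblasts 5 of 17 coreceptors rose and 8 fell, and 16 of 42 transducers rose and 17 fell, beside 28.2% and 27.6% of all genes, with medians of -0.19 and -0.01. Among the larger of these changes were those of the actin binder *Ablim3* (log2 fold change -1.86, SE 0.19, edgeR adjusted p = 3.5e-07), the Rac regulator *Chn2* (log2 fold change -1.89, SE 0.18, edgeR adjusted p = 1.5e-07) and *Rgma*, a ligand of Neo1 (log2 fold change -1.79, SE 0.09, edgeR adjusted p = 1.8e-11). In descending fibroblasts with all libraries 2 of 18 coreceptors rose and 5 fell, and 6 of 40 transducers rose and 3 fell, beside 3.59% and 4.48% of all genes. Without replicate 3 these were 7 and 10 of 18, and 15 and 12 of 41, beside 26.6% and 26.3%. The genes that fell there include *Flrt1* and *Chn2*, which were under the filter in descending TGFβ and entered through control, where they are high. *Met* (log2 fold change -2.02, SE 0.16, edgeR adjusted p = 0.0022) and *Srgap3*, an effector of Robos (log2 fold change -1.97, SE 0.28, edgeR adjusted p = 0.013), fell there and *Mical3* (log2 fold change 1.83, SE 0.30, edgeR adjusted p = 0.019) and *Flrt3*, which binds Unc5 and Robo proteins (log2 fold change 1.78, SE 0.28, edgeR adjusted p = 0.017), rose. Without replicate 3 these 4 genes had -1.89, -1.63, 1.57 and 1.88.

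Between sites in control, 2 of 18 coreceptors and 2 of 43 transducers passed with all libraries, beside 2.65% of all genes, and these 4 were higher in ascending: *Flrt3* (log2 fold change 2.28, SE 0.27, edgeR adjusted p = 0.015), *Rnd1* (log2 fold change 1.88, SE 0.24, edgeR adjusted p = 0.017), *Ptprd* (log2 fold change 1.37, SE 0.12, edgeR adjusted p = 0.0061) and *Mical2* (log2 fold change 0.95, SE 0.10, edgeR adjusted p = 0.011). Without descending control replicate 3 they had 2.37, 1.68, 1.38 and 0.90. There 8 of 19 coreceptors were higher and 3 lower in ascending fibroblasts, and 16 of 44 transducers were higher and 5 lower, beside 16.4% and 15.2% of all genes. The 16 include *Dpysl5*, which entered through its ascending libraries alone. With TGFβ, 6 of 17 coreceptors were higher and 6 lower in ascending than in descending fibroblasts, as were 9 and 13 of 41 transducers, beside 18.1% and 18.2% of all genes, among them *Fes* (log2 fold change -1.77, SE 0.10, edgeR adjusted p = 1.4e-14), *L1cam* (log2 fold change 1.60, SE 0.24, edgeR adjusted p = 2.5e-06) and *Rnd1* (log2 fold change 1.24, SE 0.07, edgeR adjusted p = 1.2e-14). *Chn2* is counted there too, but its descending TGFβ libraries were under the filter's 10 counts and it entered through ascending ones, so that nothing is read from its difference. In the interaction 3 of 18 coreceptors and 1 of 43 transducers passed with all libraries, beside 0.806% of all genes. Without descending control replicate 3, 2 of 19 coreceptors were positive and 6 negative, and 4 of 44 transducers were positive and 11 negative, beside 6.07% and 7.4% of all genes. Neuropilin 1, *Nrp1*, had 108, 118 and 112 CPM in descending control and 47.6, 48.2 and 52.3 CPM with TGFβ, against 93.04, 96.5 and 90.9 and 66.97, 69.7 and 71.4 CPM in ascending fibroblasts, so that its fall was larger in descending ones (log2 difference 0.76, SE 0.11, edgeR adjusted p = 0.011). *Flrt3* was negative (log2 difference -1.55, SE 0.26, edgeR adjusted p = 0.022), with 1.67, 1.30 and 1.79 CPM in descending control, 5.21, 5.26 and 6.05 CPM in descending TGFβ, 7.26, 6.80 and 9.01 CPM in ascending control and 8.72, 10.1 and 8.48 CPM in ascending TGFβ. *Flrt2* (log2 difference -0.69, SE 0.11, edgeR adjusted p = 0.018) and *Mical2* (log2 difference -0.56, SE 0.10, edgeR adjusted p = 0.029) were negative too. Without that library *Nrp1*, *Flrt3*, *Flrt2* and *Mical2* had 0.76, -1.64, -0.72 and -0.51, each past the threshold.

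Some of these values have limits of their own. Ascending control replicate 2 had a summed level of 6 macrophage markers of 341.3 CPM, against 51.2 and 56.5 CPM in the other 2 libraries of its group. *Plxnc1* had 58 counts in that library against 9 and 11, and *Sema4d* 26 against 13 and 8. Neither gene passed any test. Of the exonic 50-base words of *Efna3*, 8.13% are shared with another gene or its antisense partner, as are 7.68% for *Efna4*, 7.06% for *Plxna1*, 5.93% for *Sema4c* and 5.54% for *Epha1*, and whether counting used strand is not given in the sources used here.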

How the data were processed

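Primary adventitial fibroblasts of ascending and descending mouse aorta were sequenced in bulk, with and without TGFβ, in 12 libraries. The authors deposited 1 table of counts, raw whole numbers per gene symbol. Their processing notes name FastQC, STAR, featureCounts, DESeq2 and mm10, without versions. Their aligned reads were not used here, and the strand setting is not given in the sources used here. All counts in the table belong to a gene symbol.

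The members and gene lists were chosen with earlier results of these data known. Each comparison was fitted on its own groups with edgeR 4.0.16 (R 4.3.3), with TMM scaling, filterByExpr (at least 10 counts in enough libraries and 15 in all), the quasi-likelihood F-test and Benjamini-Hochberg adjustment over all genes tested. An adjusted p under 0.05 was called, and the SE is the log2 fold change divided by the square root of F. The interaction used all 12 libraries. Per comparison, up to 8 called members with the largest change are given with SE and adjusted p, and other pathway genes up to 4. One pathway gene that this rule names is not reported here. CPM scales counts by TMM-scaled library sizes, and RPKM divides it by exon length of the GENCODE annotation. The count test was tested on simulated counts first. Total counts were 16250126 to 23892943 per library, and a floor of 3 counts limits what can be said of genes at 0. That limit covers counting error only.

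Alternatives were DESeq2 1.42.0, its size factors in edgeR, no filter, a filter of 10 counts in every library, a block for the replicate number, all 12 libraries in one fit, and leaving out each library in turn.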

Additional observations from a re-analysis of the deposited data

Results flagged for a closer look

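*Slit3* was singled out because its TGFβ response differed between sites by a direct test. The ascending response minus the descending response was -1.57 on the log2 scale over 12 libraries, with ascending control at a mean of 210.8 ± 22.7 CPM, ascending TGFβ at 74.5 ± 4.18, descending control at 212.9 ± 44.7 and descending TGFβ at 223.8 ± 22.0 (n = 3 each). Leaving out ascending TGFβ replicate 3 gave -1.53 and an edgeR adjusted p of 0.0523.

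*Sema7a* was singled out for the same reason, with -0.89 over 12 libraries. Its means were 29.2 ± 3.32 CPM in ascending control, 68.6 ± 2.86 in ascending TGFβ, 14.7 ± 0.25 in descending control and 64.4 ± 4.11 in descending TGFβ. It passed in 7 of 15 alternatives of the test, scaling, block and libraries, with adjusted p from 2.6e-06 to 0.0725, and missed without a filter (0.058).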

How the results depend on the processing

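In ascending fibroblasts, 37 members were called with TGFβ and 37 to 40 when single libraries were left out. Between sites with TGFβ these were 35 and 33 to 36. Comparisons with descending control depended on its replicate 3: leaving out single libraries gave 3 to 37 members called with TGFβ in descending fibroblasts, 0 to 33 between sites in control and 0 to 19 in the interaction, the highest each time without that replicate. DESeq2 called 19 with TGFβ in descending fibroblasts and 12 between sites in control. A filter of 10 counts in every library gave 14 with TGFβ in descending fibroblasts, and no filter gave 1 in the interaction. Fitting all 12 libraries together, so that every comparison shared the same estimate of spread, gave 20 (ascending), 26 (descending), 14 (control) and 15 (TGFβ). The cause of these changes was not tested. For DESeq2, the other filters, this fit and the block below, the share of all genes called was not computed. DESeq2's size factors in place of TMM turned no sign and moved the median of all genes by under 0.1.

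The replicate numbers were not taken as pairs, since nothing in the labels says that same-numbered cultures share animals. Over 18 same-numbered pairs of libraries the correlation of deviations from group means was -0.024 to 0.084, and 0 were over 0.1. Yet 8 of 12 libraries correlated best with their own of the 3 numbers, so that these values do not settle the pairing. With the replicate number as a block, 2 members were called with TGFβ in descending fibroblasts, 0 between sites in control (12 at an unadjusted p under 0.05) and 1 in the interaction. Under the block the sign turned for *Unc5a* (0.57), *Epha7* (0.15) and *Sema6c* (0.20) with TGFβ in descending fibroblasts and for *Unc5a* (0.75), *Sema4g* (0.67) and *Plxna1* (0.018) between sites in control.

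Leaving out single libraries turned the sign of some members. With TGFβ in descending fibroblasts the values ran from -0.90 to 0.23 for *Unc5a*, -0.31 to 0.65 for *Epha7*, -0.53 to 0.59 for *Epha1*, -0.46 to 0.25 for *Sema6c*, -0.38 to 0.86 for *Sema4b*, -0.35 to 0.055 for *Ephb2* and -0.21 to 0.33 for *Ephb4*. Between sites in control they ran from -0.011 to 0.96 for *Epha7*, -0.65 to 0.48 for *Unc5a*, -0.60 to 0.35 for *Sema4g*, -0.48 to 0.051 for *Plxna3*, -0.12 to 0.44 for *Sema3a*, -0.27 to 0.10 for *Plxna1* and -0.22 to 0.37 for *Plxnd1*. In the interaction they ran from -0.42 to 0.028 for *Robo1* and -0.21 to 0.26 for *Efnb1*. The cause was not tested. Depth limits the 14 members that missed the filter, none over 18 counts.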
